A study of Mus musculus with 12 samples.

Results

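Adipose progenitors (AP) from visceral adipose tissue (VAT) were compared with unfractionated adipose tissue (AT) of that depot. The members are the 3 arrays titled as AP from VAT and the 3 titled as unfractionated AT from VAT, which are 6 of the 12 arrays of the study. The other 6 arrays hold the same preparations from inguinal subcutaneous fat (SAT) and are used here only to show where the visceral comparison differs. All material came fresh from C57BL/6 mice, with no transgene or treatment in the labels, and VAT was the perigonadal depot. For AP, the fat was digested with enzymes. Antibody-coated magnetic beads then depleted the stromal-vascular fraction of lineage-positive blood cells and CD31-positive endothelial cells. AP are therefore what this depletion left behind, obtained from several mice, and no progenitor marker was used to choose them. AT was left unfractionated, so the effect of the preparation and the identity of the cells cannot be told apart. The labels call the replicates biological without naming the animals behind each, so the p-values here describe how far these samples scatter, which may be technical. Precision is bounded by having 3 arrays a group.

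Adipose progenitors are mesenchymal cells along the vessels and in the connective tissue of fat. They carry the platelet-derived growth factor receptors, lay down collagen-rich matrix and can turn into adipocytes under the nuclear receptor Pparg and the factor Cebpa. Whole fat holds those cells together with lipid-filled adipocytes, endothelium, mural cells and immune cells, above all macrophages. Visceral depots are also covered by mesothelium, and their stromal cells are known for mesodermal transcription factors such as Wt1 and Tcf21.

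Values are log2 intensities made by the robust multi-array average (RMA), so that 1 unit is a 2-fold change. Of 22180 genes tested, 7239 (32.6%) differed between AP and AT in VAT at an adjusted p under 0.05, and only these are said to rise, fall or change. AP were higher for 3507 genes (15.8%) and lower for 3732 (16.8%), so 48.4% of the calls were rises. With the arrays scaled to housekeeping genes instead, the median difference of all genes moved by 0.54, from 0.03 to 0.58, and the rises became 92.7% of the calls (11998 against 950). Of the 11 housekeeping genes tested, 6 fell and 2 rose in AP as deposited. At an unadjusted p under 0.05 the same test called 9156 genes.

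As deposited, large falls outnumbered large rises. With housekeeping scaling that order turned at 2-, 4- and 8-fold but not at 32-fold. A difference of at least 2-fold was found for 856 rises and 1110 falls, at least 4-fold for 180 and 325, at least 8-fold for 35 and 115, and at least 32-fold for 4 and 17. With housekeeping scaling the same counts were 2568 and 518, 423 and 183, 79 and 68, and 7 and 11. The 3 AP arrays lay all above or all below the 3 AT arrays for 9082 genes (40.9%). Of the called genes, 6901 had this separation. Pairs of AP arrays correlated across genes at 0.9902 to 0.9923 and pairs of AT arrays at 0.9869 to 0.9908. Pairs of an AP and an AT array gave 0.923 to 0.9389 (genes are not independent replicates). Below, near background stands for a group mean lower than 4.09 (the 40th percentile of all values); differences from such a group are fitted values only.

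**Figure D1:**
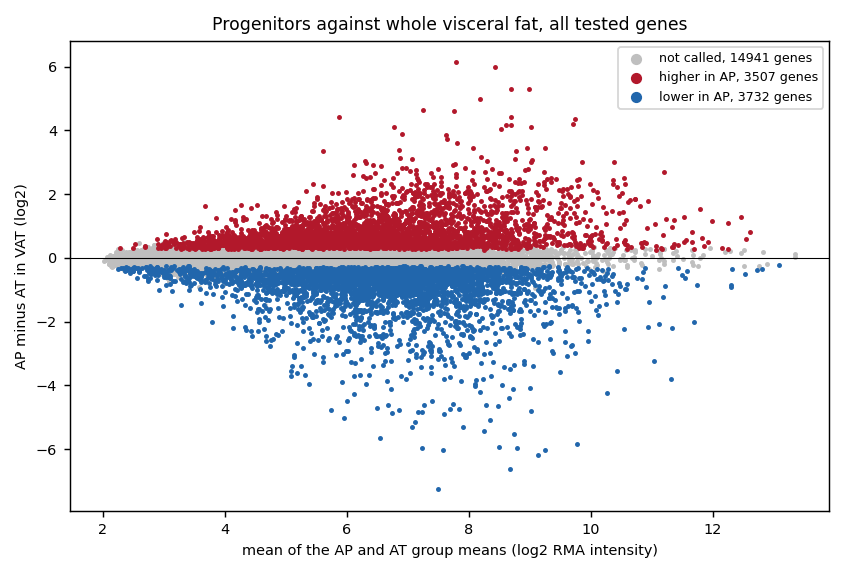
Each point is 1 of the 22180 genes in VAT. The horizontal axis is the mean of the AP and AT group means (log2 RMA intensity) and the vertical axis is AP minus AT (log2). Red marks the 3507 genes higher in AP, blue the 3732 lower in AP and grey the genes not called. The blue points reach farther from 0 than the red ones.

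Leaving out predicted genes, small RNA, olfactory receptors and immunoglobulin and T cell receptor segments, the 15 largest rises in AP were mostly those of immediate early and stress genes, and the 15 largest falls were mostly those of adipocyte genes. The AP-1 subunit Fos (Entrez Gene 14281) read 10.86, 10.73 and 11.01 on the AP arrays and 4.64, 4.53 and 5.02 on the AT arrays. The AP values lay far above every AT value, a 70.4-fold difference (log2 difference 6.14, SE 0.139, adjusted p = 1.92e-13). The related AP-1 subunit Fosb read 11.47, 11.36 and 11.49 in AP against 5.27, 5.24 and 5.82 in AT. The groups were again far apart, with a difference of 6.00 (SE 0.138).

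The orphan nuclear receptor Nr4a1 rose by 5.30 (SE 0.428), from 6.34 ± 0.37 (SD, n = 3) in AT to 11.64 ± 0.10 in AP. The zinc finger factor Egr1 rose by 5.30 (SE 0.188). Further rises among the 15 were those of the AP-1 subunit Jun (4.19), the stress factor Atf3 (4.18), the antiproliferative protein Btg2 (4.16), the matricellular protein Ccn1 (4.11) and the nuclear receptor Nr4a3 (4.10). The mRNA-destabilising protein Zfp36, which shortens the life of cytokine transcripts, rose by 4.37. In the list of immediate early transcription factors, 24 of 24 tested members rose, with a median difference of 2.94 and a lowest of 0.88. All 24 had AP arrays above AT arrays, as did 20.5% of all genes.

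**Figure D2:**
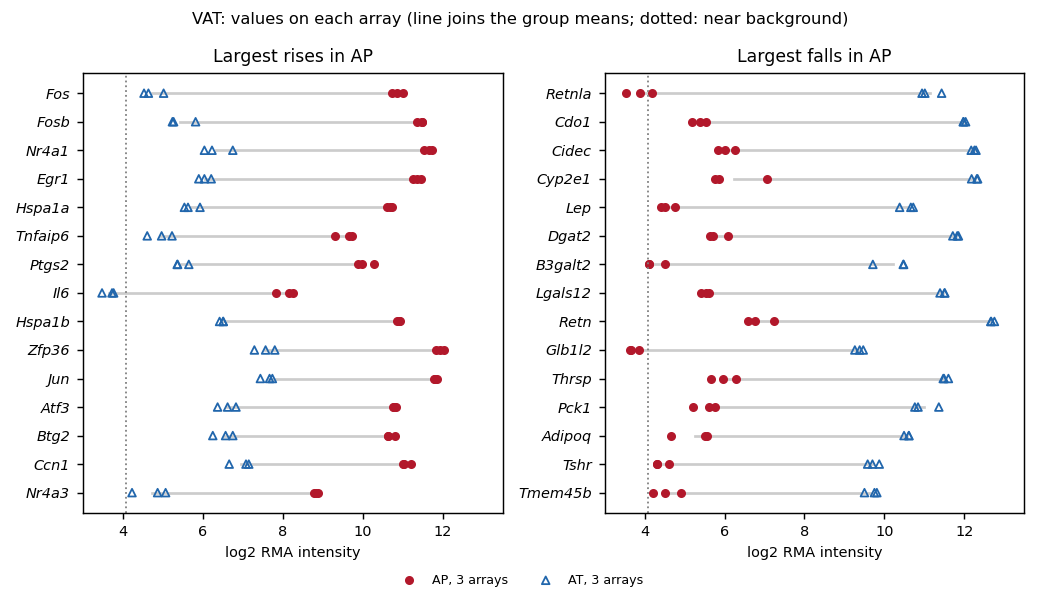
The 15 largest rises (left) and falls (right) in AP from VAT. The horizontal axis is the log2 RMA intensity. Filled red circles are the 3 AP arrays, open blue triangles the 3 AT arrays, a grey line joins the group means and the dotted line is the near-background level of 4.09. In each row the circles and triangles are separate. For Il6, Retnla and Glb1l2 the mean of the lower group lies below the dotted line. The AP arrays of B3galt2 (4.52, 4.10 and 4.11) lie just above it.

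Heat shock genes moved in both directions: of 16 tested heat shock proteins and co-chaperones, 6 rose and 5 fell, with a median of 0.17. With housekeeping scaling, 9 rose and 1 fell. Hspa1a, a heat shock protein of the 70 kDa class that appears on protein damage, read 10.61, 10.68 and 10.73 in AP and 5.93, 5.63 and 5.54 in AT, without overlap (difference 4.97, SE 0.154). The neighbouring Hspa1b read 10.93, 10.91 and 10.86 against 6.51, 6.42 and 6.51 (4.42, SE 0.095). These are near-identical copies, so probes of one can detect the other and their split is uncertain. The small heat shock protein Hspb1 rose by 1.92. The mitochondrial chaperonin Hspd1 fell by 2.12. Its co-chaperonin Hspe1 (-0.97) and the cytosolic Hspa4l (-0.79) also fell, and with housekeeping scaling they were at -0.42 and -0.25 and not called.

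The promoters of the 2 heat shock genes are shown because they illustrate how alike the copies are. Each window runs from 250 bases before to 50 bases after the annotated start (RefSeq, build GRCm38.p6, minus strand), and 296 of 300 bases (98.7%) are identical. Capitals mark the 4 bases that differ, in Hspa1a at chr17:34972107-34972406 and in Hspa1b at chr17:34959189-34959488.
Hspa1a: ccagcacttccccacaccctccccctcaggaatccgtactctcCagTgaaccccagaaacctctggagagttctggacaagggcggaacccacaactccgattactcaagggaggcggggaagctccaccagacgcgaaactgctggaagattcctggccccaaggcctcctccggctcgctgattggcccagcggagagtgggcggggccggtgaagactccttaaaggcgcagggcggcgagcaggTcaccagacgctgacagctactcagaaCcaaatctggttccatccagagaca
Hspa1b: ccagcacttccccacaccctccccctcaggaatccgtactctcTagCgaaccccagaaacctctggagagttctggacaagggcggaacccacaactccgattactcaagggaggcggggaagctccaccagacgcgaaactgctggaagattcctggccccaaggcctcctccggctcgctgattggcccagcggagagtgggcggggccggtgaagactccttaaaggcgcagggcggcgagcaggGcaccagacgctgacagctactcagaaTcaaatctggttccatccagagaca

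The windows of the large risers were searched on both strands for 5 motifs. These were a TATA box (TATAAA), a full cAMP response element (TGACGTCA), an AP-1 site (TGANTCA), a CArG box (CC, then 6 bases that are A or T, then GG) and a heat shock element (3 GAA units in alternating orientation, 2 bases apart). Only the CArG box can contain another of these motifs, the TATA box. Of the 35 genes that rose at least 8-fold, 29 had a window, and of 16918 tested genes with a window the shares are given for comparison. A TATA box was found for 6 of 29 (20.7%, against 14.3% of all): Adamts1, Rgs4, Gadd45b, Junb, Ccn1 and Fos. A cAMP response element was found for 3 of 29 (10.3%, against 2.64%). An AP-1 site was found for 2, Il6 and Tnfaip6 (6.90%, against 8.39%), a CArG box for Zfp36 alone (3.45%, against 1.67%) and a heat shock element for 0 (against 0.632%). Among the 91 genes with a window that fell at least 8-fold, a TATA box was found for 12 (13.2%), an AP-1 site for 15 (16.5%) and a cAMP response element for 2 (2.20%). A match describes the letters only, and these shares were not tested.

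The stretches that hold the TATA box of Fos, the gene with the largest rise, and the cAMP response element of the 3 risers that carry it are printed with the motif in capitals. They come from RefSeq on GRCm38.p6, with Fos on the plus strand at chr12:85473790-85473939 and the others on the minus strand. Btg2 is at chr1:134079274-134079361, the MAP kinase phosphatase Dusp1 at chr17:26508568-26508655 and the hyaluronan synthase Has1 at chr17:17855224-17855311. The first base of the TATA box of Fos lies at position -33 from the annotated start. The elements begin at -166 in Btg2, -143 in Dusp1 and -83 in Has1.
Fos: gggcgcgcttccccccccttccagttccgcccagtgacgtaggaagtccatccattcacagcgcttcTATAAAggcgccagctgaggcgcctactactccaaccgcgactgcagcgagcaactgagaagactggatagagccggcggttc
Btg2: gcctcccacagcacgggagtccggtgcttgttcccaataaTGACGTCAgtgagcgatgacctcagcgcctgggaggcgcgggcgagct
Dusp1: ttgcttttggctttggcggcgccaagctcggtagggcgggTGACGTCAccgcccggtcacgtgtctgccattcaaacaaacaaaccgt
Has1: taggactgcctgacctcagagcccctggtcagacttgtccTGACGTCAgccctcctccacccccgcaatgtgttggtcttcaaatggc

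Most listed brakes on MAP kinase signalling rose, and so did most genes of a list that mixes NF-kappaB subunits and feedback inhibitors. Of 15 tested MAP kinase phosphatases and feedback inhibitors, 10 rose and 1 fell (median 0.94). Dusp1, which switches off stress kinases, read 11.32, 11.27 and 11.50 in AP and 8.10, 8.56 and 8.42 in AT (difference 3.00, SE 0.165). The receptor inhibitor Errfi1 rose by 2.46 and the antagonist of growth factor signalling Spry2 by 2.31, while Dusp4 fell by 0.67 (adjusted p = 0.0272). The Dusp4 call was lost without AP replicate 1 or 2 or AT replicate 1 or 2 (adjusted p = 0.0693 to 0.118) and with housekeeping scaling (-0.13). Among NF-kappaB subunits and feedback inhibitors, 12 of 15 rose and 0 fell (median 0.68), among them Nfkbiz (2.50), the ubiquitin-editing enzyme Tnfaip3 (1.76) and the inhibitor Nfkbia (1.33).

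Other stress lists had members in both directions. Of 18 genes of the unfolded protein and integrated stress response, 5 rose and 3 fell (median 0.14). The phosphatase subunit Ppp1r15a, which ends the translational block, rose by 2.66, and the asparagine synthetase Asns fell by 1.62. Of 16 cell cycle inhibitors and p53 response genes, 5 rose and 4 fell (median 0.11). There the stress sensor Gadd45b rose by 3.60 and the kinase inhibitor Cdkn2c fell by 2.71. With housekeeping scaling the unfolded protein and integrated stress list had 12 rises and 2 falls (median 0.68). The cell cycle and p53 list then had 9 rises and 2 falls (median 0.65).

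Cytokine and prostaglandin genes rose in part. The interleukin Il6 read 8.26, 7.83 and 8.15 in AP and 3.73, 3.48 and 3.77 in AT, all 3 near background. Its fitted difference was 4.42 (SE 0.197, adjusted p = 1.7e-10). Of 22 interleukins and related cytokines, 8 rose and 0 fell (median 0.28), including the macrophage growth factor Csf1 (1.92) and the IL-6 family cytokine Lif (1.59). Ptgs2, the inducible prostaglandin synthase, read 9.98, 9.89 and 10.28 against 5.36, 5.37 and 5.65 (4.59, SE 0.307).

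The hyaluronan-binding protein Tnfaip6 rose by 4.63, with no overlap of the arrays. The synthase Has1 rose by 3.36 from an AT mean near background, and the prostaglandin receptor Ptger3, an adipocyte receptor that restrains lipolysis, fell by 2.13. Of 23 genes of prostaglandin and hyaluronan synthesis, 9 rose and 4 fell (median 0.20).

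Chemokines split by gene. The neutrophil attractant Cxcl1 read 8.49, 8.23 and 8.88 in AP and 4.90, 5.34 and 5.26 in AT (difference 3.37, SE 0.173). The monocyte attractant Ccl2 rose by 2.71 and the eosinophil attractant Ccl11 by 2.32. In the other direction, Ccl6 averaged 4.31 ± 0.05 (SD, n = 3) in AP against 9.19 ± 0.22 in AT (-4.88, SE 0.231). The chemokine Ccl9, which macrophages make, fell by 3.95 and the interferon-induced Cxcl9 by 2.86. In all, 7 of 21 chemokines rose and 4 fell (median 0.23).

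Complement genes moved in both directions, with 5 of 15 higher and 9 lower (median -0.71). The macrophage products C1qb and C1qc fell by 4.58 and 3.38, and the receptor C3ar1 fell by 3.26. The terminal component C7 rose by 2.68, the protease C1s1 by 1.70 and the inhibitor Serping1 by 1.54. Of 18 interferon-stimulated genes 2 were higher and 2 lower (median 0.07), where 32.6% of all genes were called. This depended on the scaling: scaled to housekeeping genes, 12 rose and 0 fell (median 0.61). The factor Irf1 rose by 1.35 and the antiviral protein Rsad2 fell by 0.62, which was -0.08 and not called with housekeeping scaling.

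Genes of the mature adipocyte were lower in AP throughout the list. Of 22 tested members, 21 fell and 0 rose (median -3.45). All 22 had AP arrays below AT arrays, as did 20.4% of all genes. Cidec, which fuses lipid droplets, read 6.26, 6.01 and 5.83 in AP and 12.17, 12.25 and 12.29 in AT, a 73.7-fold difference (-6.20, SE 0.161). The appetite hormone leptin (Lep) read 4.42, 4.76 and 4.50 against 10.38, 10.66 and 10.72 (-6.03, SE 0.200). Adiponectin (Adipoq) read 5.55, 5.52 and 4.67 against 10.49, 10.61 and 10.61 (-5.32, SE 0.247). The member not called was the lipid droplet protein Cidea, which is taken up with the subcutaneous comparison below.

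The largest fall of all was that of Retnla, a resistin-like protein made by macrophages and fat. It read 3.88, 3.53 and 4.18 in AP, near background on average, and 11.01, 10.94 and 11.43 in AT (-7.26, SE 0.452). Cysteine dioxygenase (Cdo1) fell by 6.63 (SE 0.245), the cytochrome Cyp2e1 by 6.04, the lectin of adipocytes Lgals12 by 5.95 and resistin (Retn) by 5.83. B3galt2, a galactosyltransferase, fell by 5.98, Glb1l2 by 5.65 to a level near background, the thyrotropin receptor Tshr by 5.30 and the membrane protein Tmem45b by 5.14.

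The hormone list as a whole was mixed, with 9 of 19 adipokines lower and 3 higher; its median was -0.36, and 0.19 with housekeeping scaling. The neurotrophic hormone Metrnl (0.81), the peptide Cck (0.70) and the vascular peptide Apln (0.60) were the 3 that rose. The Apln call was lost without AP replicate 1 or AT replicate 1 or 3 (adjusted p = 0.0611 to 0.0779).

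Lipid synthesis and storage fell as well. Dgat2, which completes triglycerides, read 6.08, 5.64 and 5.71 in AP and 11.82, 11.71 and 11.85 in AT (-5.98, SE 0.117, adjusted p = 4.45e-14). In triglyceride synthesis and lipolysis, 17 of 19 genes fell and 0 rose (median -2.36), with Pnpla3 at -4.49 and the glycerol phosphate dehydrogenase Gpd1 at -4.21. In de novo lipogenesis, 14 of 15 fell and 0 rose (median -2.65). The lipogenic regulator Thrsp fell by 5.54 and fatty acid synthase (Fasn) by 4.24.

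Among lipid droplet proteins 12 of 18 fell and 2 rose (median -1.17). Among perilipins, Plin1 (-4.62) and Plin4 (-4.40), which coat the droplets of adipocytes, fell, and the widely expressed Plin3 rose by 0.75. The steroid dehydrogenase Hsd17b11 was the other riser (0.32, adjusted p = 0.0371), a call lost without replicate 1 or 3 of either group (adjusted p = 0.0766 to 0.121). Of 16 genes of fatty acid uptake and lipoprotein lipolysis, 12 fell and 2 rose (median -0.84). The fatty acid transporter Cd36 fell by 3.54 and the apolipoprotein Apoc1 fell by 3.06, while the receptors Lrp1 (1.48) and Vldlr (0.77) rose.

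Fuel oxidation was lower across most of its genes. Branched-chain amino acid catabolism had 19 of 20 genes lower and 1 higher (median -2.00). The dehydrogenase Aldh6a1 fell by 3.00 and the carboxylase subunit Mccc1 by 2.91, and the cytosolic aminotransferase Bcat1 was the one that rose (0.77). In fatty acid oxidation 16 of 20 fell (median -1.38), with the dehydrogenase Acadm at -2.56, and the liver-type carnitine transferase Cpt1a rose by 0.62.

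In glyceroneogenesis, pyruvate and lactate 11 of 17 fell and 1 rose (median -1.23). Cytosolic Pck1, an enzyme of 1 step on the path from pyruvate to glycerol phosphate, fell by 5.45 and pyruvate carboxylase (Pcx) by 5.09. The mitochondrial isoform Pck2 rose by 1.20.

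All 15 tested genes of the citrate cycle fell (median -1.13), led by Idh3a (-2.40). In the respiratory chain 30 of 32 genes of complex I fell (median -0.89), 21 of 22 of complexes II to IV (median -1.11) and 11 of 16 of ATP synthase (median -0.79). The inhibitor of ATP synthase Atpif1 rose by 0.48. With housekeeping scaling the medians of these lists stayed below 0, and the falls came to 8 for the citrate cycle, 9 for complex I, 12 for complexes II to IV and 6 for ATP synthase.

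Cholesterol synthesis had 11 of 18 genes lower and 2 higher (median -0.67), with the synthase Hmgcs1 at -2.18 and the regulator Srebf2 at 0.89. Insulin and adrenergic signalling had 12 of 16 lower and 4 higher (median -0.93). The regulatory kinase subunit Prkar2b (-4.75) and the phosphodiesterase Pde3b (-4.74), through which insulin restrains lipolysis, fell. The adaptor Irs2 rose by 1.75 and Grb10, which dampens the receptor, by 0.94.

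**Figure D3:**
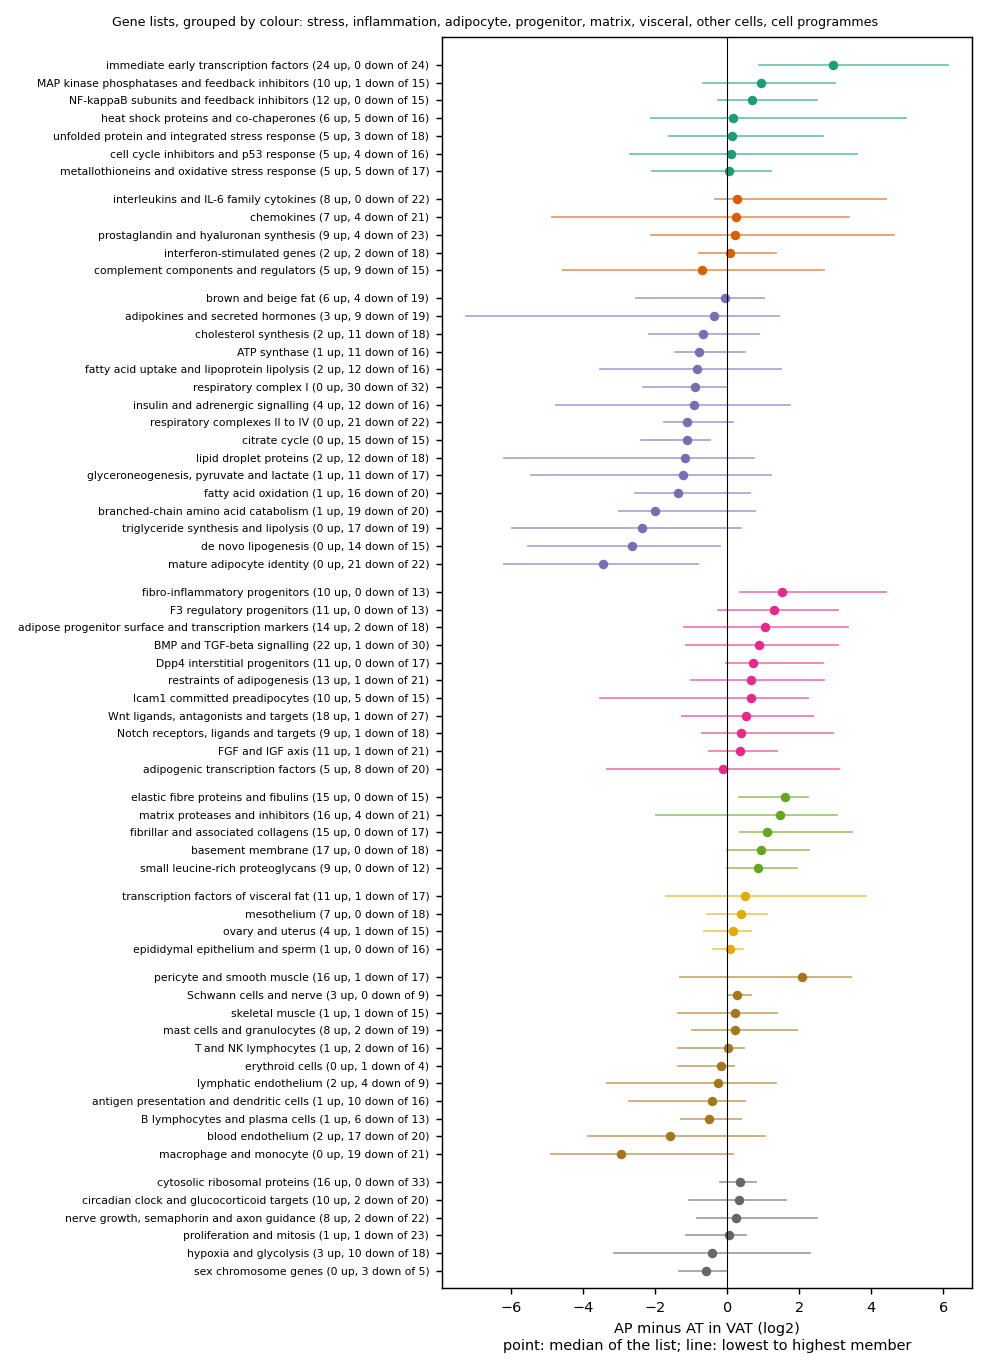
Each row is 1 of the 65 gene lists, with its counts of members that rose and fell in AP from VAT and of members tested. The horizontal axis is AP minus AT (log2). The point is the median of the list, the line runs from the lowest to the highest member and colours separate the themes. The medians run from -3.45 for mature adipocyte identity to 2.94 for immediate early transcription factors.

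Of 18 tested markers of progenitors, 14 rose in AP, 2 fell and 2 were not called (median 1.04). The receptor Pdgfra read 11.05, 10.86 and 11.23 in AP and 8.55, 8.66 and 8.52 in AT (difference 2.47, SE 0.227). Pdgfrb, which mural cells share, read 10.52, 10.26 and 10.57 against 6.81, 7.50 and 6.95 (3.36, SE 0.211). The surface sialomucin Cd34 rose by 1.42, and the matrix proteoglycans Lum and Dcn by 1.94 and 0.82. The 2 that fell were Cd24a (-1.21), a marker of an early progenitor subset that leukocytes also carry, and the preadipocyte zinc finger factor Zfp423 (-0.57). With housekeeping scaling Zfp423 was at -0.02 and no longer called.

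Lists for the described progenitor subsets all had more members higher than lower. In the fibro-inflammatory list 10 of 13 rose and 0 fell (median 1.53), led by Il6 and the matricellular protein Thbs1 (2.99). In the list of F3-positive regulatory cells 11 of 13 rose and 0 fell (median 1.29). Its members Gdf10, a BMP family ligand, and the globin Cygb rose by 3.07 and 3.00. The Dpp4 list had 11 of 17 higher and 0 lower (median 0.72), with the secreted protein Pi16 at 2.65 and the sialomucin-like Cd248 at 2.09. The Icam1 list of committed preadipocytes had 10 of 15 higher and 5 lower (median 0.66). The transpeptidase Ggt5 rose by 2.23, and Cd36, Pparg and lipoprotein lipase (Lpl), which adipocytes share, fell.

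Of 20 transcription factors of adipogenesis, 5 rose, 8 fell and 7 were not called; the median was -0.11, and 0.44 with housekeeping scaling. Cebpd, induced at the start of differentiation, read 8.78, 8.29 and 8.79 in AP and 5.42, 5.45 and 5.69 in AT (3.10, SE 0.204), and Cebpb rose by 1.29. Cebpa read 7.22, 6.84 and 7.13 against 10.32, 10.47 and 10.46 (-3.35, SE 0.128), and Pparg fell by 2.49. Factors that restrain adipogenesis had 13 of 21 higher and 1 lower (median 0.66). The dominant negative helix-loop-helix protein Id3 rose by 2.68, Klf2 by 2.38 and Sox9 by 2.37, and the interferon regulatory factor Irf4 fell by 1.01. With housekeeping scaling Irf4 was at -0.46 and not called.

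The signalling lists had more members higher than lower. BMP and TGF-beta signalling had 22 of 30 higher and 1 lower (median 0.88), with the latent TGF-beta binding protein Ltbp1 at 2.09 and follistatin (Fst), an activin trap, at 2.02. Wnt ligands, antagonists and targets had 18 of 27 higher and 1 lower (median 0.53). The antagonist Sfrp1 rose by 2.39 and the agonist Rspo3 by 1.47, and the receptor Fzd4 fell by 1.26. The FGF and IGF axis had 11 of 21 higher and 1 lower (median 0.34), with the binding protein Igfbp3 at 1.37. The ligand Fgf10 was at -0.52 as deposited and 0.02 with housekeeping scaling, and its call was lost without AP replicate 3 or AT replicate 1 or 2 (adjusted p = 0.0553 to 0.0906). Notch genes had 9 of 18 higher and 1 lower (median 0.37). Of those, the mural receptor Notch3 rose by 2.95 and the endothelial ligand Dll4 fell by 0.70. With housekeeping scaling Dll4 was at -0.16 and not called.

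Most listed matrix genes rose. Of 15 tested elastic fibre proteins and fibulins 15 rose (median 1.59), with the tenascin Tnxb at 2.23, Ltbp4 at 2.14 and Fbln2 at 2.13. Of 18 basement membrane genes 17 rose and 0 fell (median 0.94), with the laminin chain Lama2 at 2.28. Of 17 fibrillar and associated collagens 15 rose and 0 fell (median 1.11). The microfibrillar chain Col6a1 read 11.43, 11.36 and 11.49 in AP and 9.21, 9.53 and 9.76 in AT (1.93, SE 0.177), and Col1a1 rose by 1.78.

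Small leucine-rich proteoglycans had 9 of 12 higher and 0 lower (median 0.84). Matrix proteases and inhibitors had 16 of 21 higher and 4 lower (median 1.45). The aggrecanases Adamts1 and Adamts4 rose by 3.04 and 2.91 and urokinase (Plau) by 2.46. Mmp9, which leukocytes make, fell by 1.96, the inhibitor Timp4 by 1.97 and the macrophage elastase Mmp12 by 0.93 to a level near background. The Mmp12 call was lost when any VAT array but AT replicate 1 was left out (adjusted p = 0.075 to 0.136) and with housekeeping scaling (-0.38).

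Whether the preparation held what its label says was checked on marker lists of the cell types that visceral fat can hold. Fewer cells of a type and less RNA per cell cannot be told apart in bulk RNA. Macrophage markers had 19 of 21 lower and 0 higher (median -2.96). The mannose receptor Mrc1 read 4.39, 4.34 and 4.66 in AP and 9.17, 9.36 and 9.19 in AT, a 27.4-fold difference (-4.78, SE 0.210). The mean over the macrophage list was 5.10 to 5.15 on the AP arrays and 7.83 to 7.92 on the AT arrays. The pan-leukocyte gene Ptprc fell by 2.16, from 7.62, 8.01 and 7.38 in AT to 5.59, 5.26 and 5.67 in AP.

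Blood endothelium had 17 of 20 markers lower and 2 higher (median -1.60). The junction protein Cdh5 read 5.80, 6.30 and 5.74 against 9.74, 10.06 and 9.61 (-3.86, SE 0.201), and Pecam1, the CD31 antigen of the beads, fell by 2.83. The 2 that rose were endoglin (Eng, 1.05), which stromal cells also carry, and the receptor Tek (0.66). AP array 2 of Tek (6.96) lay below AT array 2 (7.14), and the call was lost without any 1 of 4 arrays (AP replicates 1 and 3, AT replicates 1 and 3; adjusted p of 0.124 or more). The lymphatic list had 4 of 9 lower and 2 higher; its median was -0.26, and 0.29 with housekeeping scaling. Lyve1, shared with macrophages, fell by 3.35 and Mmrn1 fell by 2.29, while podoplanin (Pdpn) rose by 1.34.

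Mural cells were not a target of the beads, and most of their markers rose. Of 17 pericyte and smooth muscle genes 16 rose (median 2.08). Smooth muscle myosin (Myh11) read 10.67, 10.70 and 10.67 in AP and 7.35, 7.30 and 7.10 in AT, a 10.8-fold difference (3.43, SE 0.105). The muscle filament desmin (Des) rose by 2.92 and the pericyte gene Rgs5 by 1.17. The adhesion molecule Mcam, which endothelium also carries, was the one that fell (-1.31). The list mean was 8.22 to 8.39 on the AP arrays and 6.33 to 6.55 on the AT arrays.

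Lymphocyte lists were less separated. T and NK genes had 1 of 16 higher and 2 lower (median 0.01), where 32.6% of all genes were called. With housekeeping scaling 8 of them rose and 1 fell (median 0.55). As deposited, B and plasma cell genes had 6 of 13 lower and 1 higher. The B cell median was -0.52, and 0.02 with housekeeping scaling. AT array 3 stood at 4.88 on the B cell list, among the AP arrays (4.87 to 4.90), with AT arrays 1 and 2 at 5.44 and 5.71. The antigen Cd79a fell by 1.13 and the T cell chain Cd3g by 1.36 (adjusted p = 0.0273). The Cd3g call was lost without AP replicate 2 or 3 or AT replicate 2 (adjusted p = 0.0657 to 0.153). Antigen presentation had 10 of 16 lower and 1 higher, with a median of -0.44 that became 0.10 with housekeeping scaling. The class II chain H2-Aa fell by 2.73.

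The mast cell genes with the largest differences rose. The carboxypeptidase Cpa3 read 9.56, 9.43 and 8.91 in AP and 7.39, 7.70 and 7.14 in AT (1.89, SE 0.281). The tryptase Tpsb2 rose by 1.94 and the chymase Mcpt4 by 1.70. In the list of mast cells and granulocytes 8 of 19 rose and 2 fell (median 0.21), the falls being those of the neutrophil genes S100a8 (-0.98, near background in AP) and Csf3r. Csf3r was at -0.42 as deposited and 0.13 with housekeeping scaling. Its call was lost without AP replicate 1 or 3 or AT replicate 1 or 2 (adjusted p = 0.0662 to 0.113), and that of S100a8 without replicate 2 of either group (0.0535 and 0.0773) and with housekeeping scaling (-0.43). Schwann cell and nerve genes had 3 of 9 higher and 0 lower (median 0.27), among them Ngfr (0.62). Of 11 erythroid genes listed, 4 were tested. The haemoglobin genes and Alas2 set as erythroid markers were not among the tested genes under those names. The transferrin receptor Tfrc, also 1 of the housekeeping genes used for scaling, fell (-1.37). The erythroid median was -0.17, and 0.38 with housekeeping scaling.

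**Figure D4:**
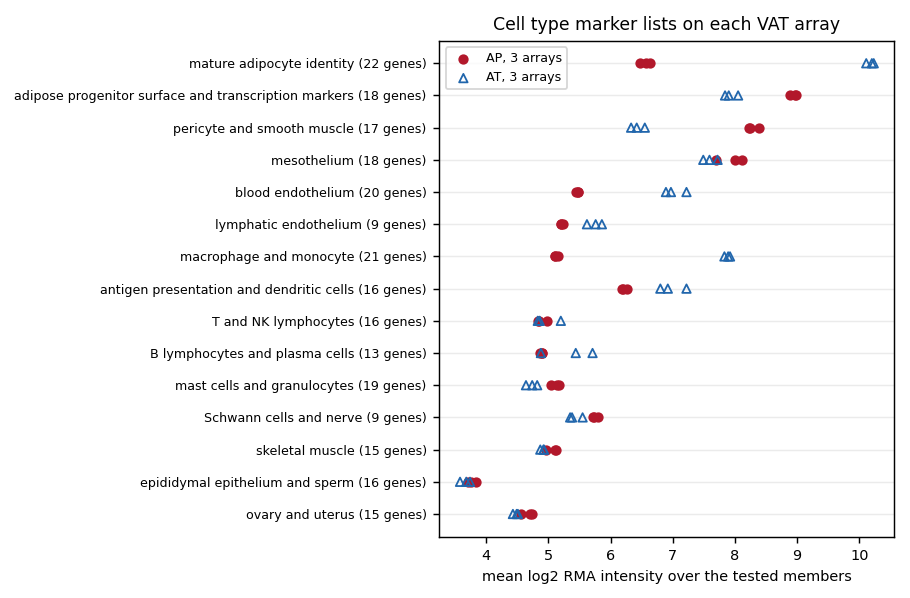
Mean log2 RMA intensity over the tested members of 15 marker lists (rows) on each VAT array. Filled red circles are the 3 AP arrays and open blue triangles the 3 AT arrays. The adipocyte, macrophage and endothelial lists lie lower on all AP arrays, the mural and progenitor lists higher, and the mesothelial, T and NK, B cell and epididymal lists overlap.

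Markers of mesothelium, the covering layer of visceral fat, were measured in both preparations. They had 7 of 18 higher in AP and 0 lower (median 0.37). Upk3b, a uroplakin of mesothelial cells, read 11.17, 11.39 and 11.64 in AP and 10.35, 10.32 and 10.71 in AT (0.94, SE 0.249, adjusted p = 0.00832). Mesothelin (Msln) rose by 0.56 (adjusted p = 0.0174), a call lost without AP replicate 3 or AT replicate 1 (adjusted p = 0.0693 and 0.0833). Keratin Krt19 was not called, with 6.75, 7.11 and 7.36 against 6.59, 6.58 and 6.87. AP array 1 had the lowest list mean of AP at 7.70, below the highest AT array at 7.72, and AP array 3 had the highest at 8.12.

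Transcription factors of visceral fat had 11 of 17 higher and 1 lower (median 0.49). Tcf21, a helix-loop-helix factor of visceral mesenchyme, read 9.83, 9.47 and 9.33 in AP and 5.65, 5.71 and 5.76 in AT, a 14.3-fold difference (3.84, SE 0.148, adjusted p = 3.19e-11). Osr1 rose by 1.63, Nr2f2 by 1.27 and Wt1 by 1.09. Wt1, which mesothelium shares, read 8.26, 8.32 and 8.19 against 7.08, 7.11 and 7.31. Hoxc8 read 8.97, 8.87 and 8.99 in AP and 10.56, 10.72 and 10.69 in AT and was the one that fell (-1.71, SE 0.112).

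Genes of neighbouring organs are set against the 32.6% of all genes that were called. Housekeeping scaling gave rises for 11 of 16 epididymal and sperm genes and 13 of 15 genes of ovary and uterus, with 0 falls in either list. The counts that follow are as deposited. Of 16 genes of epididymal epithelium and sperm 1 rose, the lipocalin Lcn6 (0.39, adjusted p = 0.0205), and 10 were near background in both groups. The Lcn6 call was lost without AP replicate 2 or AT replicate 1 or 3 (adjusted p = 0.0615 to 0.102). Of 15 genes of ovary and uterus 4 rose and 1 fell (median 0.17), with the steroid carrier Star at 0.67 and the oestrogen receptor Esr1 at -0.64. With housekeeping scaling Esr1 was at -0.10 and not called. Skeletal muscle genes had 1 of 15 higher and 1 lower (median 0.22), and 13 higher and 1 lower with housekeeping scaling (median 0.77). Skeletal actin (Acta1) read 7.37, 8.08 and 7.03 in AT and 5.88, 6.30 and 6.18 in AP (-1.37), and Actn3 rose by 1.39. The X-inactivation RNA Xist was at most 3.56 on the 6 VAT arrays and the Y-linked Eif2s3y was 5.60 to 6.41 in AP and 6.90 to 7.72 in AT. Of 5 tested sex chromosome genes 3 fell, all of them Y-linked: Eif2s3y (-1.33), Uty (-0.96) and Kdm5d (-0.60). With housekeeping scaling the calls of Uty (-0.42) and Kdm5d (-0.06) ended and that of Eif2s3y remained.

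The same difference was then set beside that in SAT, whose arrays are other samples. The direction was shared by most calls. In both depots 2356 genes rose and 2801 fell, and 45 were called in opposite directions. The interaction, which tests the VAT difference minus the SAT difference, was called for 476 genes (2.15%), 219 above 0 and 257 below 0. Left out 1 at a time, 4 arrays lowered that count by more than 1.5 times: AP replicate 1 (264) and 2 (309) and AT replicate 1 (293) of SAT, and AP replicate 2 of VAT (279). With housekeeping scaling it was 149.

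Among the rises in VAT, Tcf21 had the largest interaction. In SAT it read 5.10 ± 0.21 (SD, n = 3) in AP and 4.86 ± 0.23 in AT, a difference of 0.24, and the interaction was 3.60 (SE 0.210, adjusted p = 7.64e-07). The collagen chain Col6a5 read 10.99 ± 0.07 in AP and 7.53 ± 0.06 in AT of VAT (3.46) against 6.11 ± 0.52 and 4.87 ± 0.30 in SAT (interaction 2.23). The guidance ligand Slit2 rose by 2.50 in VAT, with 0.56 in SAT (interaction 1.94, SE 0.177). Lrrn1, a leucine-rich neuronal membrane protein, rose by 3.04 against 1.07 (interaction 1.97), and Fndc5, the precursor of irisin, by 2.12 against 0.28 (1.84). The neurotrophin receptor Ntrk3 rose by 2.17 in VAT and was at -0.59 in SAT (2.76). The matrilin Matn2 rose by 0.99 in VAT and fell by 1.09 in SAT (2.08).

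Of the 12 largest interactions above 0, the other 5 came from falls that were smaller in VAT or not called there. Haptoglobin (Hp) fell by 2.17 in VAT and 5.59 in SAT (interaction 3.42, SE 0.280), with AP at 9.85 ± 0.27 in VAT and 6.11 ± 0.49 in SAT. The endothelial receptor Kdr fell by 1.45 in VAT and 3.40 in SAT (1.95). Cidea, a lipid droplet protein of thermogenic fat, was 5.16 ± 0.87 in AT of VAT and 9.69 ± 0.97 in AT of SAT. Its interaction was 4.58 (SE 0.567), and its VAT difference of -0.82 was not called (adjusted p = 0.138). The proton channel Otop1 (interaction 2.81) and the pyruvate dehydrogenase kinase Pdk4 (2.38) were at -2.56 and -2.79 in SAT, both called, and at 0.25 and -0.42 in VAT. The interaction of Pdk4 was not called with the trend and robust options of limma (adjusted p = 0.0717). In the brown and beige fat list 6 of 19 rose and 4 fell in VAT; the median was -0.07, and 0.48 with housekeeping scaling. The mitochondrial subunit Cox8b (-2.55) and the transporter Slc36a2 (-2.16) fell there, and the progenitor factor Ebf2 rose by 1.02.

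Of the 257 genes with an interaction below 0, 128 fell in VAT and 46 rose. Among the 12 largest, 6 fell in VAT. The serpin Serpina3b read 8.16, 8.64 and 7.54 in AT of VAT, near background in AP (3.36 ± 0.22) and near background in both groups of SAT (3.35 ± 0.06 and 3.44 ± 0.15). Its VAT difference was -4.76 and the interaction -4.66 (SE 0.287, adjusted p = 8.27e-07). The imprinted adipocyte gene Mest read 9.63 ± 0.11 in AT of VAT and 7.43 ± 0.14 in AP, a fall of 2.20, with 0.35 in SAT (interaction -2.55). The peptidase Folh1 (-1.76 in VAT, 0.58 in SAT), the small GTPase-like Rasl11b (-1.66, 0.68) and the endothelin receptor Ednrb (-2.35, -0.22) gave interactions of -2.34, -2.34 and -2.14. The complement component C6 fell by 3.26 in VAT and 1.25 in SAT (-2.01).

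The remaining 6 of those 12 were higher in AP in SAT, with smaller or no called differences in VAT. The lubricin gene Prg4 was at 3.45 in SAT and -0.91 in VAT (interaction -4.36, SE 0.642), and the B cell attractant Cxcl13 at 2.76 and -0.96 (-3.73, SE 0.752). With the trend and robust options that of Cxcl13 was not called (adjusted p = 0.121). Angiotensinogen (Agt) was at 1.97 and -0.36 (-2.33). The reductase Akr1c18 was low in both groups of VAT (4.27 and 4.58) and was at 2.21 in SAT (-2.52). The decoy receptor Il1r2, also low in VAT, gave -2.13 (not called without AP replicate 1 of SAT, adjusted p = 0.0512) and the potassium channel Kcnk5 -2.04. The VAT call of Kcnk5 (0.72) was lost without any VAT array but AP replicate 1 (adjusted p = 0.0548 to 0.128). Among the stress genes, Hspa1b (-1.56), Il6 (-1.56), Has1 (-1.76) and the metallothionein Mt2 (-1.54) rose in both depots, and the interaction was below 0. That of Has1 was not called without AP replicate 2 or AT replicate 2 of VAT or AT replicate 1 of SAT (adjusted p = 0.0518 to 0.0765). Fos (0.03) and Fosb (-0.08) had no called interaction.

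**Figure D5:**
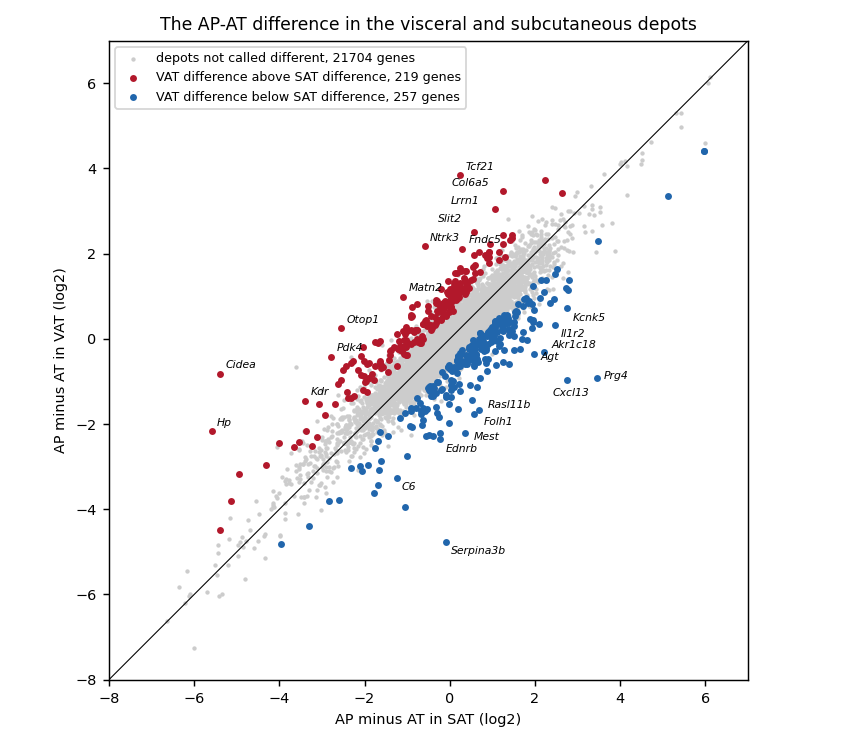
Each point is 1 of the 22180 genes, with AP minus AT (log2) in SAT on the horizontal and in VAT on the vertical axis. Red points (219) and blue points (257) have an interaction above or below 0 at an adjusted p under 0.05, and the 12 largest on each side are named. The line marks equal differences. Most points lie along it, Tcf21 lies far above it and Serpina3b far below.

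Replicates within VAT differed little for most genes. Among genes above the near-background level the median SD was 0.15 in each preparation, and the largest was 1.39 in AP and 2.17 in AT. An SD above 1 was found for 3 genes in AP and 15 in AT. The genes named next are the 5 of widest spread in each group once immunoglobulin and T cell receptor segments, predicted genes, small RNA and olfactory receptors are left out. In AP the acute phase genes Saa3 (6.98, 6.40 and 8.07) and Lcn2 (7.48, 7.16 and 8.57) were highest on array 3, and neither difference was called. The others of these 5 in AP were Fhl4, which only array 2 showed (5.47, with 3.80 and 3.75), the deubiquitinase gene Usp17le (5.81, 5.22 and 4.15) and the ribosomal pseudogene Rps12-ps24 (4.61, 6.56 and 7.31). The call of Rps12-ps24 (adjusted p = 0.0499) was lost in 5 of the 6 fits that left out 1 VAT array, all but that without AP replicate 3 (adjusted p = 0.0583 to 0.199).

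In AT the immunoglobulin joining chain (Jchain) read 6.08, 7.62 and 3.47, the B cell antigen Ms4a1 5.50, 5.59 and 3.69, and the adhesion protein Chl1 4.91, 7.04 and 4.23. The liver genes Mup3 (5.11, 6.32 and 4.28) and Alb (5.43, 7.19 and 5.53) were highest on array 2. AT array 3 was lowest for both B lineage genes. It also had the highest correlation with each of the 3 AP arrays (0.9357, 0.9356 and 0.9389).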

How the data were processed

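RNA of 12 samples was hybridised to Affymetrix mouse arrays, and the 6 VAT arrays form the comparison. The deposited values are log2 intensities that the authors made by RMA in Affymetrix Expression Console 1.3.0.187, per the submitters' processing notes. The genome build behind the probe annotation is not given in the sources used here. Values ran from 1.69 to 13.48, with array medians of 4.49 to 4.67. RMA puts all arrays on 1 distribution, so a change in total RNA per cell is not seen.

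Of 41345 probe sets, 23521 had exactly 1 gene in the platform annotation, 1814 several and 16010 none. For the 1082 genes with several probe sets the one with the highest mean was kept, which left 22180 genes. The gene names are those of that annotation. A mean per group over all 12 arrays was fitted with limma 3.58.1 in R 4.3.3, 2-sided, with Benjamini-Hochberg adjustment over all genes and a threshold of 0.05. All adjusted p-values come from limma. The fit was tested on simulated data. Groups came from the sample titles, and the members, the gene lists and the tests were chosen with earlier results of these data known. Genes named are the 15 largest non-overlapping rises and falls, cell type markers, up to 3 risers and fallers of each list, list members called against the majority where 3 or fewer, the 12 largest interactions of each sign and the 5 genes of widest spread per group. Predicted genes, small RNA, olfactory and vomeronasal receptors and immunoglobulin and T cell receptor segments were left out of the largest rises and falls, the interactions and the spread. Rgs4, Junb and Xist, outside that rule, were named after their values were seen. Same-numbered AP and AT arrays of VAT had deviations from their group means that correlated at -0.029, -0.261 and -0.28. These values gave no sign of pairing. With 3 arrays a group and different preparations they cannot show that the samples are unpaired, so the main fit left pairing out. Promoter windows came from RefSeq. Alternatives were other normalizations and scaling, fits, filters, probe set rules and thresholds, and leaving out each array.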

Additional observations from a re-analysis of the deposited data

Results flagged for a closer look

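In the list genes, markers and large changes named above, 50 had a difference between AP and AT that departed between VAT and SAT by limma's interaction test at an adjusted p under 0.05. The 24 with the largest interactions are described in the report and are repeated here by value (VAT minus SAT difference, log2). Above 0 they were Cidea (4.58), Tcf21 (3.60), Hp (3.42), Otop1 (2.81), Ntrk3 (2.76), Pdk4 (2.38), Col6a5 (2.23), Matn2 (2.08), Lrrn1 (1.97), Kdr (1.95), Slit2 (1.94) and Fndc5 (1.84). Below 0 they were Serpina3b (-4.66), Prg4 (-4.36), Cxcl13 (-3.73), Mest (-2.55), Akr1c18 (-2.52), Folh1 (-2.34), Rasl11b (-2.34), Agt (-2.33), Ednrb (-2.14), Il1r2 (-2.13), Kcnk5 (-2.04) and C6 (-2.01).

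Further members of the adipocyte and progenitor lists also departed between the depots. The falls in VAT were the larger ones for Plin4 (-1.10), Lpl (-0.55) and the receptor Fzd4 (-0.94), and the smaller one for the transporter Slc36a2 (1.22). The BMP antagonist Chrdl1 fell by 1.14 in VAT and was at 0.64 in SAT (-1.77). Timp4 fell by 1.97 in VAT and was at -0.02 in SAT (-1.95). The progenitor genes Ggt5 (1.28) and Sox9 (0.90) and the mesothelial factor Wt1 (0.71) had the larger rise in VAT, and so did smooth muscle Myh11 (0.79). Osr1 (-0.88), Igfbp3 (-1.43) and Metrnl (-0.78) had the smaller one. The lipoprotein receptor Vldlr rose by 0.77 in VAT and was at -0.24 in SAT (1.00).

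Stress and cytokine genes with a smaller rise in VAT were Hspa1b (-1.56), Il6 (-1.56), Has1 (-1.76) and Mt2 (-1.54). For Hspa1a, the near-identical copy of Hspa1b, the interaction was -0.44 and not called. Falls that were larger in VAT were those of Asns (-0.71), Cxcl9 (-1.24) and the lymphatic gene Mmrn1 (-1.73). Acta1 (-1.41), Esr1 (-0.89) and the glucocorticoid target Zbtb16 (-1.18) fell in VAT and were at 0.03, 0.25 and 0.58 in SAT. Actn3 rose by 1.39 in VAT and was at 0.36 in SAT (1.03), and the mitotic kinase Plk1 rose by 0.51 and was at -0.35 (0.86).

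With housekeeping scaling, 15 of the 50 interactions were not called: those of Actn3, Asns, Esr1, Fzd4, Ggt5, Lpl, Metrnl, Myh11, Osr1, Plin4, Plk1, Slc36a2, Sox9, Vldlr and Wt1. In at least 1 of the 12 fits without 1 array, 15 were not called: those of Asns, Cxcl9, Esr1, Has1, Il1r2, Lpl, Metrnl, Osr1, Plin4, Plk1, Sox9, Timp4, Vldlr, Wt1 and Zbtb16.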

How the results depend on the processing

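The number of arrays limits precision, and signal near background gives only fitted values. With housekeeping scaling 12948 genes were called (11998 higher, 950 lower), 3086 of them at least 2-fold, and the interaction count was 149; at an adjusted p under 0.01 it was 157. Leaving out 1 array at a time gave 6027 to 7432 called genes (2816 to 3592 higher, 3148 to 3840 lower), 1889 to 2115 at least 2-fold and 264 to 626 for the interaction. With the replicate number as a block, 6968 genes were called (3349 higher, 3619 lower), 1963 at least 2-fold and 417 for the interaction. Whether the numbers pair the samples is not known. With the VAT arrays alone 6520 were called. Under cyclic loess, quantile normalization, the filter on dim genes, the mean over probe sets and the trend and robust options, these counts stayed within 1.5 times of the values reported. Housekeeping scaling reversed Csf3r (0.13), Fgf10 (0.02) and Sema3g (0.05), none of them then called, and ended the call of 23 other named genes. Leaving out 1 VAT array ended the call of 21 named genes. Among the 24 largest interactions, those of Cxcl13 and Pdk4 were lost with the trend and robust options and that of Il1r2 without AP replicate 1 of SAT. The cause was not tested.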

Other observations

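In the list of clock and glucocorticoid genes, 10 of 20 rose in AP from VAT and 2 fell (median 0.33). The clock repressors Bhlhe40 and Per1 rose by 1.63 and 1.56, and the clock output factor Dbp rose by 1.43. Clock itself fell by 1.07, and with housekeeping scaling it was at -0.53 and not called. Zbtb16, at -0.60, lost its call without replicate 1 or 2 of either group (adjusted p = 0.053 to 0.0976) and with housekeeping scaling (-0.05). Hypoxia and glycolysis genes had 10 of 18 lower and 3 higher, with a median of -0.42 that became 0.12 with housekeeping scaling. The mitophagy receptor Bnip3 fell by 3.14, the glycolytic regulator Pfkfb3 fell by 2.90 and hexokinase Hk2 by 1.86, while the vasodilator peptide adrenomedullin (Adm) rose by 2.30 and the hexokinase Hk1 by 0.78. Cytosolic ribosomal proteins had 16 of 33 higher and 0 lower (median 0.34), with Rps18 at 0.81, Rpl3 at 0.65 and Rpl13 at 0.63.

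Guidance genes of nerves and vessels had 8 of 22 higher and 2 lower (median 0.23). Slit3 rose by 2.05 and netrin Ntn1 by 1.41. The receptor Plxna2 fell by 0.84 (-0.30 and not called with housekeeping scaling), and Sema3g was at -0.49 as deposited and 0.05 with housekeeping scaling. Metallothioneins and oxidative stress genes had 5 of 17 higher and 5 lower (median 0.05). The metal-binding Mt2 and Mt1 rose by 1.20 and 1.05 and their list partner Nfe2l2, a regulator of antioxidant genes, by 0.78. Catalase (Cat) fell by 2.09 and the superoxide dismutases Sod2 and Sod1 by 1.63 and 1.46. Proliferation genes had 1 of 23 higher and 1 lower (median 0.04), the kinase Plk1 at 0.51 and the cyclin Ccnd2 at -1.15. Of all genes, 32.6% were called. With housekeeping scaling the proliferation list had 14 higher and 1 lower (median 0.58). The metallothionein and oxidative stress list then had 9 higher and 3 lower (median 0.59).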
